A study of Mus musculus with 23 samples.

Results

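The regions described here are distal ATAC-seq peaks that were found on day 0 and on neither of the earlier days in 3T3-L1 cells, an established line of mouse preadipocytes, the precursors of fat cells. A day 0 peak belonged to them if the authors gave it no gene, if it was not mitochondrial, and if it shared no base with a peak of day -2 or day -1. This left 9494 of 37054 day 0 peaks, or 25.6%. The regions were thus chosen by the peak calls of all 3 days, and the size of the class is a description. ATAC-seq uses a transposase that inserts sequencing adapters into open DNA. Every culture received 50 nM of siRNA on day -3, either non-targeting (scramble) or a pool against mouse Kdm5c, an X-linked demethylase of lysine 4 of histone H3. Nuclei were taken after 72 hours on day 0, and after 24 and 48 hours on days -2 and -1. Day 0 had 4 scramble libraries and 3 libraries with Kdm5c siRNA, numbered 1, 2 and 4. The other days entered only through their peak positions and read counts. The labels name no agent of differentiation up to day 0, and all libraries come from 1 cell line. Whether replicates were separate cultures is not stated, and the p-values therefore speak of these libraries and may reflect technical spread alone. An siRNA acts on messenger RNA, so these counts do not measure how far Kdm5c was lowered.

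Open chromatin away from promoters includes enhancers, where transcription factors bind and from where they act on genes at a distance. In fibroblast-like cells many such sites hold AP-1, TEAD or C/EBP motifs, and C/EBP and PPAR factors open further sites once adipogenesis starts. Enhancers usually carry a single methyl group on lysine 4 of histone H3 and active promoters several, and KDM5 enzymes remove the higher states. Day 0 of this protocol precedes the visible formation of fat cells. Of the fibroblast and preadipocyte markers, 12 of 16 had a day 0 peak with their name, among them Col1a1, Pdgfrb, Thy1, Prrx1, Cebpb and Zfp423, while Pdgfra, Cd34, Dlk1 and Runx1 had none. Mature adipocyte markers had 1 of 6 (Lep, with none at Adipoq, Plin1, Fabp4, Cidec or Retn). Immune markers had 1 of 6 (Cd14), endothelial markers 1 of 5 (Kdr), and epithelial and neural markers 0 of 5 each.

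The name distal held for most of the regions, not for all. Of 9494 regions, 114 shared at least 1 base with a window around a RefSeq transcription start, taken as 250 bases before to 50 bases after the start. These 114 met 118 windows of 113 gene symbols, and 62 of the symbols were only model names. Among the other distal day 0 peaks 1416 met such a window. These shares were 1.22% and 8.36% of the peaks that had a start on their chromosome in the RefSeq table. The start windows are also the only sequence of the files' build at hand, so the sequences of 6 of these regions are shown. They are the 6 with the highest mean count among those that shared at least 60 bases with the stretch before the start, and only that shared stretch is printed, 5′ to 3′ on the strand of the gene (RefSeq, GRCm38.p6). Capitals mark a match to an ETS motif in the fifth and to a GC box in the sixth, both read on the opposite strand.
Gm40371: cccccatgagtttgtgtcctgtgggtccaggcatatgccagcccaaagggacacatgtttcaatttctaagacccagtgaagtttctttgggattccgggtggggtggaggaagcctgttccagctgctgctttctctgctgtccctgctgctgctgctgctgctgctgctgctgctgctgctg
Sertad4: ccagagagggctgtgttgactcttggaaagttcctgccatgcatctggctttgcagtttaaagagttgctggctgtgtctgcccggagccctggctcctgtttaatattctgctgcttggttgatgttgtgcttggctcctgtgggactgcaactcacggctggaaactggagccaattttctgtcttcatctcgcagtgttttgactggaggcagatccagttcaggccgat
Gpr146: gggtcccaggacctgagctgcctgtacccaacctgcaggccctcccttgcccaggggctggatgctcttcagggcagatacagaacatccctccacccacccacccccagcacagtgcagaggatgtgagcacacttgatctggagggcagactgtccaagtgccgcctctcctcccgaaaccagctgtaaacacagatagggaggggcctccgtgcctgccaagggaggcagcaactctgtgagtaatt
Gm52312: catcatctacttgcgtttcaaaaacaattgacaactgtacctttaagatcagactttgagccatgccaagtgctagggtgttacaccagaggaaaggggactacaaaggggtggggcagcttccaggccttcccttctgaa
Gm31108: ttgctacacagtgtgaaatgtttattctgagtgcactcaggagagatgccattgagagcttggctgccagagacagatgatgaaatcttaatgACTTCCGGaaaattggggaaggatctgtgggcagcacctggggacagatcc
Rdh5: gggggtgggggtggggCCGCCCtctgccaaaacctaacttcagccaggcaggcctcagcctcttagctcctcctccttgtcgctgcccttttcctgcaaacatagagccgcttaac
Gm40371 (chr6:47649395-47649578, minus strand) ends, towards its start, in a long run of ctg triplets. Sertad4 (chr1:192851748-192851980, minus strand) encodes a protein of the SERTA domain family. Gpr146 (chr5:139389654-139389903, plus strand) encodes a G protein-coupled receptor, and Rdh5 (chr10:128919298-128919413, minus strand) a retinol dehydrogenase. Gm52312 (chr17:5977297-5977437, minus strand) and Gm31108 (chr6:143153932-143154075, minus strand) are model genes.

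The 6 regions behind these sequences, picked by level, had higher counts than most regions, and their groups overlapped. Counts are given as normalised counts, which are raw reads divided by the library's relative effective size. The region at Gm40371, chr6:47649395-47649620, had 61.3, 46.1 and 44.5 normalised counts with Kdm5c siRNA and 58.9, 88.2, 60.9 and 52.4 with scramble. The region at Sertad4, chr1:192851713-192851980, had 21.7, 31.0 and 24.1 with Kdm5c siRNA and 32.1, 28.3, 53.9 and 35.8 with scramble. The log2 fold changes of these 2 regions, always given as Kdm5c siRNA over scramble, were -0.40 ± 0.208 (SE) and -0.54 ± 0.283, and neither passed the test (adjusted p = 0.84 and 0.849, edgeR quasi-likelihood test with Benjamini-Hochberg adjustment). At Gm40371 it was -0.21 without scramble library 2, and at Sertad4 -0.32 without scramble library 3. At Gpr146, Gm52312, Gm31108 and Rdh5 the mean over all libraries lay between 22.7 and 29.9 normalised counts, and every adjusted p was above 0.9.

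Over all 118 windows that met a region, the median GC content was 54.3%. It was 60.7% in the 1700 windows that met another distal day 0 peak, 62.7% in the 9482 windows that met a peak with an authors' gene, and 52.7% in all 32851 windows. A GC box (GGGCGG, either strand, as for every motif here) stood in 41.5% of the 118 windows, against 59.5%, 71.7% and 35.7% of the other 3 sets in the same order. An ETS motif (CCGGAAGT) stood in 2 of the 118 windows, or 1.69%, against 5%, 10.1% and 3.89%. Both values lay nearer to those of all start windows than to those of windows with a gene peak. An AP-1 motif (TGANTCA) stood in 7 windows (5.93%, against 9.41%, 3.93% and 7.81%), and a TEAD motif (GGAATG) in 22 (18.6%, against 14.3%, 10.7% and 14.7%). An E-box (CANNTG) stood in 72.9%, close to the 72.3% of all windows. A CTCF motif was found in 5 windows. No window that met a region held the C/EBP motif TTGCGCAA, the NFI motif or the glucocorticoid receptor motif, each of which stood in under 0.5% of all windows. These motifs may overlap one another, and a match is a description of letters in this window alone.

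The regions were narrow and weak. Their median width was 167 bases (quartiles 137 and 217, range 93 to 1161). The other 17426 distal day 0 peaks had a median width of 320 bases, and the 10131 nuclear peaks with an authors' gene one of 670. Only 83 of 9494 regions, or 0.874%, were wider than 500 bases, against 26.6% of the other distal peaks. The median of the mean raw count per library was 8 reads (quartiles 6.57 and 10.6, range 3.57 to 191), against 19.9 for other distal peaks and 50.1 for gene peaks. In 6689 regions (70.5%) the mean stayed under 10 raw reads, compared with 16.4% of other distal peaks. Per length they were lower too, and the median density was 47.9 raw reads per kb in the regions, 65.3 in other distal peaks and 76.7 in gene peaks. A read was nevertheless seen in all 7 libraries at 8374 regions (88.2%), in 6 at 1009 and in 5 at 111, and no region was seen in fewer.

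**Figure D1:**
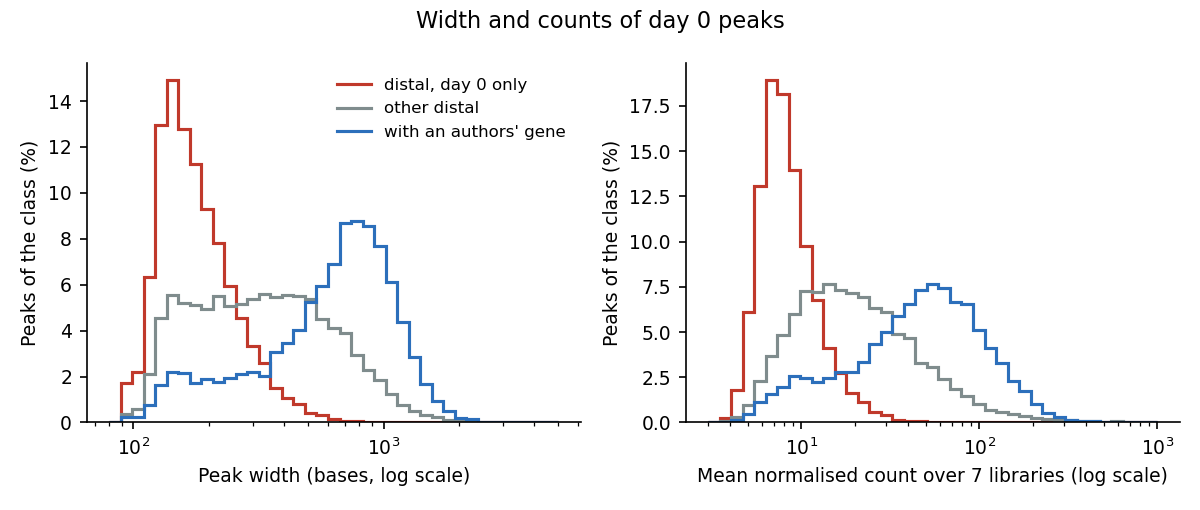
Width (left, bases) and mean normalised count over the 7 day 0 libraries (right), both on log axes, as the percentage of each class of day 0 peaks. Day 0 only distal peaks (red) pile up near their median width of 167 bases and at low counts, while other distal peaks (grey) and peaks with an authors' gene (blue) reach to the right.

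Peaks listed on a single day were narrow and weak on every day. Distal peaks seen on day -2 alone had a median width of 162 bases and a median of 8.75 raw reads, and those of day -1 alone 182 bases and 6.75 reads. Their number followed the size of the day's table. Day -2 had 84019 peaks and 51454 of its 71751 distal peaks (71.7%) were its own, day -1 had 31970 peaks and 4898 of 22278 (22%), and day 0 had 9494 of 26920 (35.3%). Nuclear counts per library, summed over the day's listed peaks, ranged from 1816082 to 3345583 on day -2. They ranged from 781309 to 1446979 on day -1 and from 1088968 to 2525925 on day 0. Such sums also depend on how many peaks are listed. The part of sequencing depth in the numbers of peaks was not tested. Within day 0, the share of distal peaks that were day 0 only went down with each decile of mean normalised count, from 76.1% in the lowest to 0.892% (24 regions, each above 45.6 normalised counts) in the highest.

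Absence from another day's list did not mean distance from its peaks. The nearest peak of day -2 or -1 lay at a median of 2.97 kb, and 1919 regions (20.2%) had one within 500 bases. The median distance was 3.36 kb to a day -2 peak and 11.5 kb to a day -1 peak. At the edge of the definition, 17 regions abutted a peak of another day with no base between, and 5 distal peaks were left out for a single shared base. Just inside were chr10:61155943-61156137 in Sgpl1 (sphingosine-1-phosphate lyase), chr14:54605905-54606015 and chr16:70330157-70330454 near Gbe1, the glycogen branching enzyme gene, with mean normalised counts of 4.14, 9.78 and 7. Just outside were chr11:61278448-61278648 near Aldh3a2 and chr16:52418237-52418393 near Alcam, with 6.61 and 6.27. Read counts of earlier days over these intervals were not analysed here, so a region absent from a list is not shown to be closed on that day.

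The regions lay mostly inside genes or far from them. By RefSeq gene spans, which do not separate exons from introns, 5128 (54.0%) were in a protein-coding gene, and 425 of these lay within 1 kb of either end of a gene. Another 141 were outside genes within 1 kb of an end, 1159 (12.2%) within 10 kb and 3049 (32.1%) farther away, and 17 were on unplaced scaffolds. Other distal peaks were in a gene in 52.6%, within 10 kb but beyond 1 kb in 12% and farther away in 33.4%. Within 1 kb of an end, inside or outside a gene, lay 5.96% of the regions and 9.09% of other distal peaks. The median distance to a RefSeq start was 20.1 kb for the regions and 18.1 kb for other distal peaks. No region shared a base with any of 1005 microRNA hairpins, but the regions cover only 1802 kb in all, which leaves little room for such an overlap.

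The genes that held most regions were long. Plxna4 on chromosome 6, a plexin that receives semaphorin signals, held 16 regions among its 18 distal day 0 peaks. Snd1, an RNA-binding nuclease, held 14 of 28, the adhesion gene Sdk1 13 of 13, Auts2 12 of 13 and the cadherin gene Cdh4 11 of 13. The span of these 5 genes ran from 444 kb (Plxna4) to 1106 kb (Auts2). Dgki (a diacylglycerol kinase), Magi1 (a junction scaffold), Foxp1 (a forkhead factor) and Wwox followed with 10 or 11. Zfp423, a zinc finger factor of preadipocyte commitment, held 9 of 16. In all, 3212 genes held a region, 2238 of them only 1 and 433 of them 3 or more. Of the 25 genes at the top of this order, 16 lie on chromosome 6 and 4 on chromosome 5.

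Chromosomes 5 and 6 carried many more of these regions than their size would give. Chromosome 6 held 1622 regions (17.1%, or 10.8 per Mb) and chromosome 5 held 1250 (13.2%, or 8.24 per Mb), against a median of 3.01 per Mb over chromosomes. Together they carried 30.3% of the regions, 19.6% of other distal peaks and 12.5% of gene peaks, on 11.1% of the genome span. Chromosome 19 followed with 7.82 per Mb, and X had the lowest density apart from Y, with 91 regions or 0.533 per Mb. Of all distal day 0 peaks, 47.7% on chromosome 6, 43.3% on chromosome 5 and 42.7% on chromosome 19 were day 0 only, compared with 21.6% on chromosome 13 and 22.3% on X.

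The level of gene peaks moved with this. The median gene peak had 67.4 normalised counts on chromosome 6 and 66.7 on chromosome 5, against 38.1 on X and a median of 47.4 over chromosomes. Chromosome 6 thus stood 1.42 times above the median chromosome in gene peak level and 3.61 times above it in density of day 0 only peaks. Over the 19 autosomes and X, density of the regions and gene peak level had a Pearson correlation of 0.784 and a Spearman correlation of 0.788 (n = 20, 0.62 and 0.709 without chromosomes 5 and 6, n = 18). The chromosomes share libraries, depth and peak caller, so this is a description. The density of other distal peaks gave 0.766 and 0.789. Peaks of day -2 alone and of day -1 alone were spread over the chromosomes in the same way, with Pearson correlations of 0.986 each with the day 0 only density. The part of this level in the density of the regions was not tested.

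**Figure D2:**
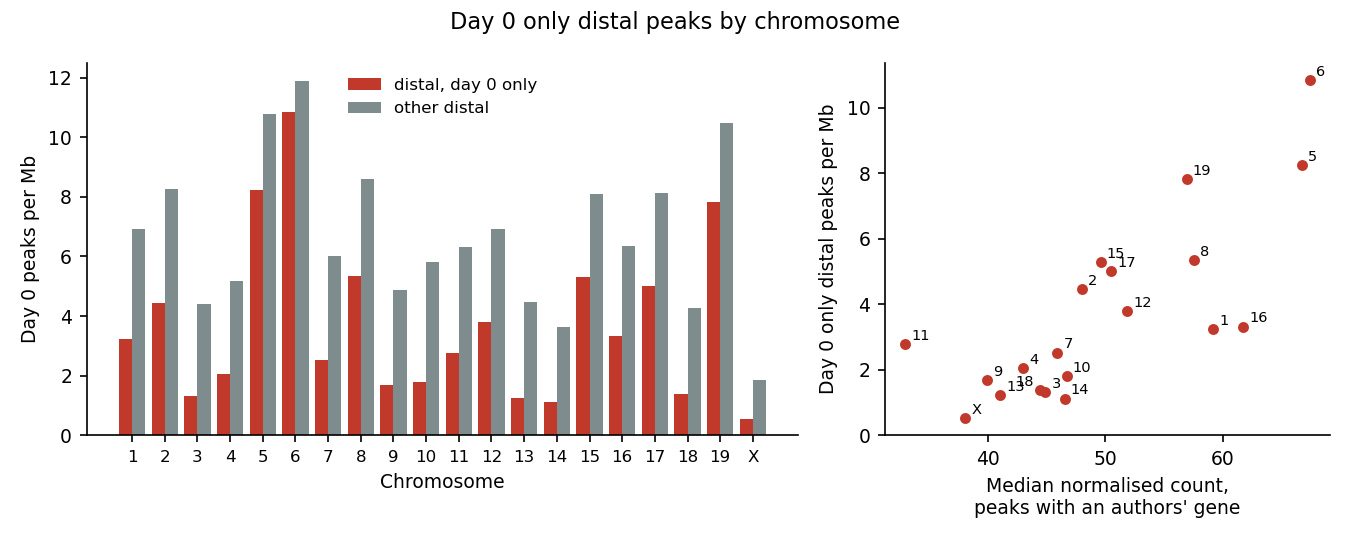
Left, day 0 only distal peaks (red) and other distal peaks (grey) per Mb of each chromosome; right, day 0 only distal peaks per Mb against the median normalised count of peaks with an authors' gene, 1 point per chromosome. Chromosomes 6, 5 and 19 stand highest in density (10.8, 8.24 and 7.82 per Mb), and X is the lowest of those drawn.

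At a finer scale the regions were unevenly spread. Of 5453 stretches of 500 kb, 2799 (51.3%) held at least 1 region and 135 held 10 or more. The fullest was chr5:142500001-143000000, with 20 regions among 32 distal peaks around the cytoskeletal genes Actb and Fscn1 and the genes Tnrc18, Rnf216 and Wipi2. The next was chr5:118000001-118500000, with 18 of 28 around Fbxo21, Tesc, Fbxw8 and Hrk. The nearest other day 0 peak of a region lay at a median of 9.49 kb, against 7.16 kb for other distal peaks. It lay within 1 kb for 13.6% of the regions and 21.5% of other distal peaks. Where it lay within 1 kb of a region, it was another day 0 only region in 32.9% of 1291 cases. Such regions are 25.6% of all day 0 peaks.

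The highest regions came from a small part of chromosome 10. Of the 24 regions in the top decile of distal peaks, 15 lay there between 107.229 and 117.724 Mb. Ranking first was chr10:117723356-117723530, 10.1 kb from the nucleotide sugar transporter family gene Slc35e3, with 207, 157 and 151 normalised counts with Kdm5c siRNA and 160, 233, 198 and 219 with scramble. The groups overlapped, with a log2 fold change of -0.26 ± 0.139 (SE, adjusted p = 0.851, edgeR), and of -0.40 to -0.17 when 1 library was left out. The second, chr10:117556674-117556983, 72.5 kb from the carboxypeptidase M gene Cpm, had 166, 164 and 215 against 144, 165, 186 and 185 (log2 fold change 0.12 ± 0.14). A pair of regions inside Cpm, chr10:117654234-117654505 and chr10:117675765-117675889, averaged 153 and 142 normalised counts. The third by rank, chr10:107228759-107229080, 42.5 kb from the scaffold gene Lin7a, averaged 165. None of these 5 differed between groups beyond the scatter of the libraries.

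High counts in that part of chromosome 10 were not particular to these regions. In chr10:117000001-118000000, which holds Mdm2, the ubiquitin ligase of p53, the 13 day 0 only regions had a median of 132 normalised counts, the 163 other distal peaks one of 204 and the 14 gene peaks one of 147. On the rest of chromosome 10 the medians were 8.35, 18.5 and 46.1, which puts the stretch 15.8, 11.0 and 3.19 times higher. In chr10:107000001-107500000 the 4 regions had a median of 112 and the 23 other distal peaks one of 201, against 8.51 and 22.9 elsewhere on the chromosome. Both stretches were picked after their values were seen. The cause of this level was not tested.

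The 3 widest regions were weak. The region chr6:47743907-47745067 spans 1161 bases with a mean of 4.37 normalised counts, chr1:190301783-190302819, 131 kb from the homeobox gene Prox1, spans 1037 bases with 6.06, and chr8:9691054-9692035 in Fam155a spans 982 bases with 8.94. Some other wide regions had high counts, such as chr1:155229574-155230331 in BC034090, with 758 bases and a mean of 61.0 normalised counts. The narrowest regions, at 93 bases, included chr11:94282341-94282433 within 1 kb of an end of the model gene Gm21885 (mean 4.32) and chr12:112062971-112063063 in Tdrd9 (mean 6.10).

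In each library the regions held a small share of nuclear counts, which are the counts in all listed nuclear peaks. With Kdm5c siRNA they took 6.51%, 5.74% and 5.81% of nuclear counts (mean 6.02% ± 0.427, SD, n = 3), and with scramble 6.48%, 7.02%, 6.44% and 6.84% (6.69% ± 0.28, n = 4). Libraries 2 and 4 with Kdm5c siRNA lay below all scramble libraries, and library 1 lay among them. The median normalised count of a region was 7.67, 6.21 and 6.29 with Kdm5c siRNA and 7.50, 8.40, 8.20 and 8.95 with scramble, again with only library 1 in the scramble range. Other distal peaks had medians of 19.2, 19.5 and 19.9 against 19.3, 18.9, 18.7 and 19.2. Scramble libraries 2 and 4 gave the highest count of 19.9% and 20.6% of the regions, compared with 13.4% and 16% of other distal peaks. No p is given for these sums over the regions. On days -2 and -1, the day's own distal peaks took 20.6% to 27.9% and 3.12% to 3.52% of nuclear counts with Kdm5c siRNA, and 20.6% to 23.7% and 3.05% to 3.79% with scramble, so that the groups overlapped there too.

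**Figure D3:**
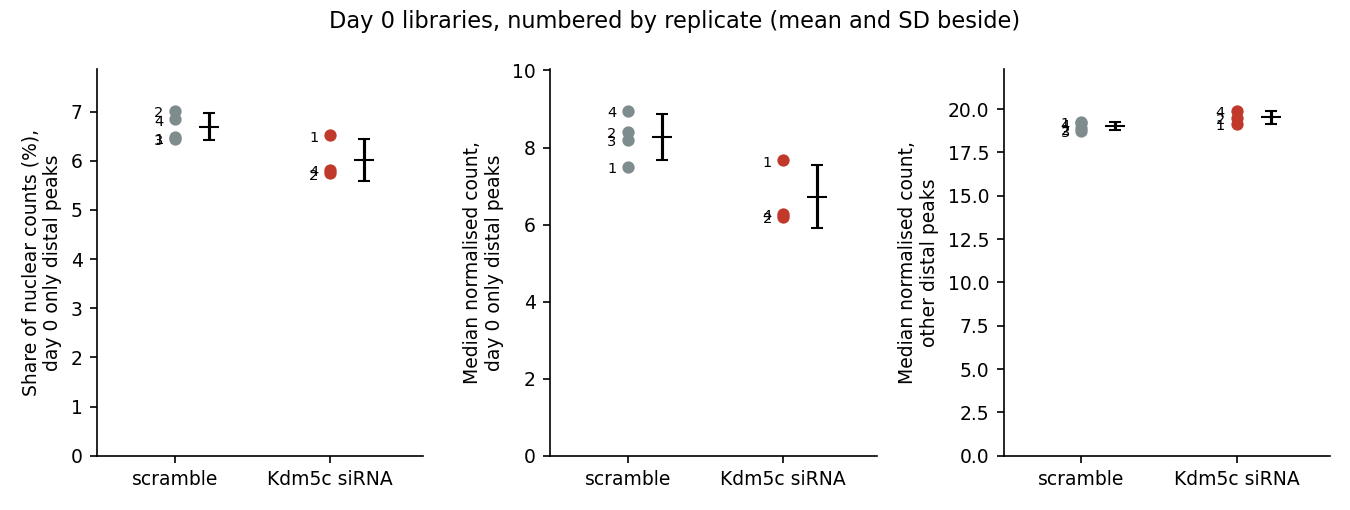
Points are the day 0 libraries, labelled by replicate number, with the mean and SD of each group beside them: share of nuclear counts in day 0 only distal peaks, their median normalised count, and the median normalised count of other distal peaks. In the first 2 panels libraries 2 and 4 with Kdm5c siRNA lie below all scramble libraries (5.74% and 5.81% against 6.44% to 7.02%). Library 1 of that group (6.51%) lies among the scramble libraries, so the groups overlap in every panel.

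Other properties of the libraries moved with the group. Counts in mitochondrial peaks made up 86.7%, 86.8% and 78.8% of all peak counts with Kdm5c siRNA and 87.5% to 91.4% with scramble, so the groups did not overlap. Library 4 with Kdm5c siRNA had 2525925 nuclear counts, while the others had 1088968 to 1524867. As a share of all counts, mitochondrial ones included, the regions took 0.869%, 0.761% and 1.23% with Kdm5c siRNA and 0.586% to 0.842% with scramble, which turns the order of the means. The part of mitochondrial share and of depth in the difference was not tested.

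Peak by peak, no region passed the test between groups. Of the 28398 day 0 peaks with enough reads for edgeR's quasi-likelihood test, 1 was called (0.00352%, Benjamini-Hochberg adjusted p below 0.05), and it was another distal peak. Only 3713 of the 9494 regions had enough reads to be tested, and the smallest adjusted p among them was 0.518. DESeq2 called none either. At an unadjusted p below 0.05 there were 243 tested regions, 53 higher and 190 lower with Kdm5c siRNA. Over all tested peaks 5.99% had such a p, 2.67% higher and 3.32% lower, and in the regions it was 1.43% higher and 5.12% lower.

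With every region kept in the fit, without the filter on low counts, 95 were higher and 468 lower at an unadjusted p below 0.05, or 1.00% and 4.93%, beside 2.6% and 3.16% of all 37054 peaks (5.77% in both directions). DESeq2 gave 103 higher and 560 lower, while 5.62% of all peaks had such a p. The median log2 fold change was -0.22 over the 9494 regions, -0.01 over all peaks, 0.03 over other distal peaks and 0.01 over gene peaks. The groups did not overlap in 130 regions that were higher (1.37%, beside 2.67% of all peaks) and in 435 that were lower (4.58%, beside 3.49%). Every region had first been listed by a peak caller from the day 0 reads, 4 scramble and 3 Kdm5c siRNA libraries, and the part of that choice in these values was not tested. The counts also rest on the scaling to the bulk of nuclear peaks. Scaled to total counts, mitochondrial ones included, the median log2 fold change was 0.56 over tested peaks and 0.43 over tested regions. In the main fit these medians were -0.01 and -0.14. With total counts the tested regions at an unadjusted p below 0.05 (edgeR) were 367 higher and 5 lower, or 9.88% and 0.135%. Over all tested peaks these shares were 22.6% and 0.0282%. With that scaling the groups did not overlap in 580 higher and 81 lower regions (6.11% and 0.853%, beside 14.5% and 0.294% of all peaks). The median region stayed below the median peak under both scalings. A change of scaling moves all peaks by nearly the same amount, so this order could not change and is no separate result. Without library 1 with Kdm5c siRNA more regions were tested, 5429, and those at an unadjusted p below 0.05 (edgeR) were 51 higher and 319 lower. Of all 31228 peaks tested in that fit, 1818 had such a p.

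The difference varied with the level of the region. Among regions whose group means averaged under 6 normalised counts (n = 1664) the median log2 fold change was -0.50, and 71.0% were below 0. It was -0.33 from 6 to 8, -0.18 from 8 to 10, -0.09 from 10 to 15, -0.07 from 15 to 30 and -0.01 at 30 and over (n = 69). Other distal peaks of the same levels had -0.33, -0.12, 0.00, 0.07, 0.07 and 0.02. Under 8 normalised counts peaks of both kinds had medians below 0, and at each level the regions had the lower median. Near another day's peak (within 500 bases, n = 1919) the median was -0.18, and farther away -0.24. On chromosomes 5 and 6 it was -0.26, and on the other chromosomes -0.21.

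**Figure D4:**
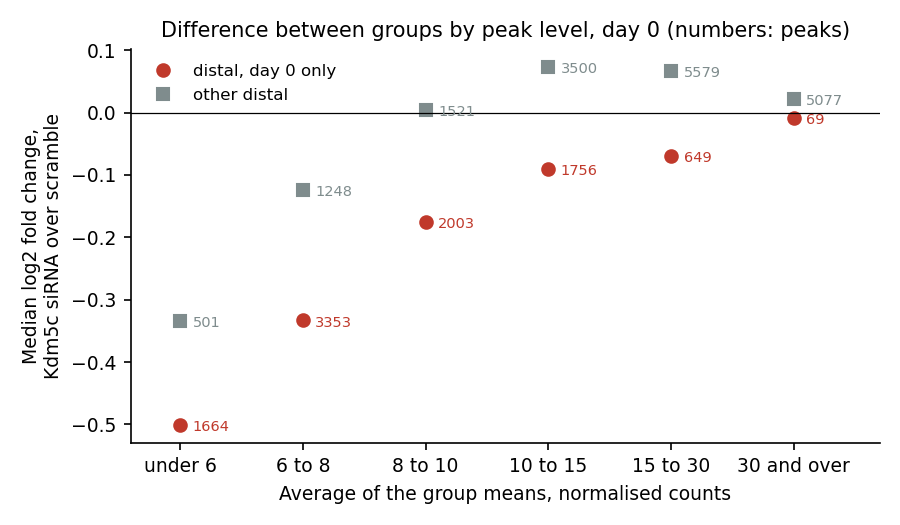
Median log2 fold change (Kdm5c siRNA over scramble) against the level of the peak, given as the average of the group means in normalised counts, with the number of peaks beside each point. The red points (day 0 only distal peaks) run from -0.50 at under 6 counts to -0.01 at 30 and over, below the grey squares (other distal peaks) throughout.

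Divided by chromosome, the share of the regions' counts overlapped between groups everywhere but on X. The 91 regions on X took 0.997%, 1.14% and 1.08% of all counts in the regions with Kdm5c siRNA and 0.953%, 0.803%, 0.931% and 0.928% with scramble. This was the only 1 of 21 chromosomes on which the groups did not overlap, while other distal peaks had 3 such chromosomes (15, 16 and 19) and gene peaks 2 of 20 (9 and 10). Chromosome 6 took 16.4% ± 0.395 and 16.9% ± 0.253 (SD) of the regions' counts.

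Of the regions that were higher with Kdm5c siRNA and whose groups did not overlap, the smallest edgeR p belonged to chr6:34707696-34707806 in Cald1. This is the gene of the actin-binding protein caldesmon, and the region lies 1.64 kb from its start. It had 20.4, 19.5 and 17.8 normalised counts with Kdm5c siRNA and 2.14, 11.5, 0 and 12.8 with scramble. The scramble libraries fell into 2 low and 2 intermediate ones, all below the Kdm5c siRNA group. The log2 fold change was 1.53 ± 0.531 (SE, adjusted p = 0.712, edgeR). DESeq2 ranked this region otherwise, with an unadjusted p of 0.103, against 0.00243 to 0.0086 at the other higher regions named here. The region chr3:126793286-126793702 in Camk2d, a calmodulin-dependent kinase gene, had 14.1, 18.6 and 16.8 against 4.29, 4.20, 2.34 and 8.95 (log2 fold change 1.74 ± 0.608). In Adam23, which encodes a disintegrin-domain membrane protein, chr1:63507474-63507697 had 30.7, 12.4 and 19.9 against 9.64, 11.5, 8.20 and 1.28. Here library 2 with Kdm5c siRNA stood only just above the highest scramble library.

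The other 3 in this direction were chr1:144355224-144355361, whose nearest coding gene is Rgs1 at 106 kb, chr19:18599085-18599299 in Ostf1, and chr9:77806800-77807046, 12.3 kb from Gclc, the catalytic subunit of the first enzyme of glutathione synthesis. Their log2 fold changes were 2.11 ± 0.753, 1.68 ± 0.621 and 1.53 ± 0.576, and each adjusted p was 0.712. Raw reads per library at the Rgs1 region were 10, 17 and 20 with Kdm5c siRNA and 3, 1, 5 and 1 with scramble, which shows how few reads such a fold rests on.

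In the other direction the smallest p among the tested regions belonged to chr1:155229574-155230331 in BC034090, which had the smallest log2 fold change of the 5 lower regions named here. It had 44.7, 48.8 and 40.3 normalised counts with Kdm5c siRNA and 76.1, 72.4, 80.8 and 63.9 with scramble. The groups were tight and apart, and at 758 bases and a mean of 61.0 normalised counts it was one of the few wide and abundant regions. Its log2 fold change was -0.73 ± 0.206 (SE, adjusted p = 0.518, and 0.645 with no low-count filter, edgeR), between -0.81 and -0.65 when any 1 library was left out and -0.18 when scaled to total counts.

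The region chr15:78251910-78252129 in Ncf4, which encodes a subunit of the phagocyte NADPH oxidase, had 7.67, 5.32 and 3.14 against 20.4, 12.6, 26.9 and 11.5. That of chr19:23959498-23959815, 9.9 kb from the neuronal adaptor gene Apba1, had 6.39, 11.5 and 6.81 against 13.9, 35.7, 12.9 and 25.6. The groups were apart in both, with a narrow gap at Apba1. The last 2 were chr1:57440824-57441071, 22.9 kb from Maip1, a gene of the mitochondrial matrix, and chr5:136060048-136060173 in the uroplakin-like gene Upk3bl, with log2 fold changes of -1.33 ± 0.44 and -1.78 ± 0.588. These 4 had adjusted p-values of 0.678 to 0.69.

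**Figure D5:**
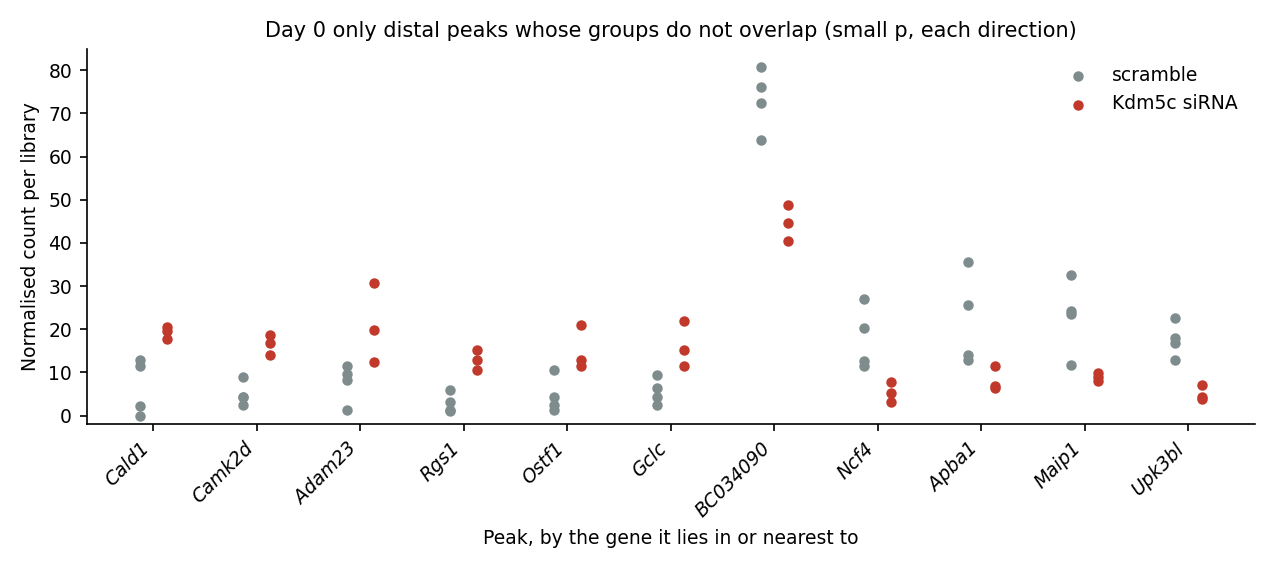
Normalised counts in each day 0 library (grey scramble, red Kdm5c siRNA) of 11 day 0 only distal peaks with a small p and groups that do not overlap, 6 higher (left) and 5 lower (right) with Kdm5c siRNA. BC034090 stands out by its level (40.3 to 48.8 against 63.9 to 80.8), while most others lie below 40 normalised counts.

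Lists of genes that matter in preadipocytes were checked for regions inside them or within 10 kb. Of 203 genes in 9 lists, 85 had at least 1 region, with 154 regions in all. No listed region was called by edgeR among the 62 that were tested, and 2 were higher and 5 lower at an unadjusted p below 0.05. Together these are 11.3% of the 62, beside 6.54% of all tested regions and 5.99% of all tested peaks. The median log2 fold change over all regions of a list was above 0 for genes of the mature fat cell (0.26), AP-1 and immediate early genes (0.22) and enzymes of histone H3 lysine 4 (0.14). It was below 0 for preadipocyte and anti-adipogenic genes (-0.44), insulin, glucocorticoid and cAMP response (-0.33), matrix and adhesion (-0.24), adipogenic factors (-0.21), YAP, TEAD and SRF (-0.16) and the cell cycle (-0.08), while all 9494 regions had -0.22 and all peaks -0.01. Of the distal day 0 peaks near listed genes, 24.3% to 36.6% were day 0 only, depending on the list, close to the 35.3% of all distal peaks or below it.

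Regulators of fat cell formation came first. Of 24 adipogenic transcription factors, 12 had regions, 25 in all against 72 other distal peaks, among them Pparg, Klf15, Ebf1, Ebf2 and Prdm16. Of the 9 tested, 1 was lower and none higher at an unadjusted p below 0.05. The region with the highest level was chr8:87914123-87914596 in Zfp423, with 44.7, 28.4 and 30.9 normalised counts against 26.8, 39.9, 26.9 and 42.2, in overlapping groups. In Tcf7l1, a repressor of the Wnt pathway, chr6:72748489-72748674 had 8.94, 6.21 and 14.1 against 21.4, 25.2, 22.3 and 19.2. Its groups were apart, at a log2 fold change of -1.11 ± 0.431 (adjusted p = 0.712, edgeR).

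Among 23 genes of the mature fat cell, 10 had regions, 15 in all, with 1 of the 6 tested higher and none lower at an unadjusted p below 0.05. At chr12:16657441-16657706, inside another gene and 3.54 kb from the phosphatidate phosphatase gene Lpin1, the mean was 16 normalised counts. At chr3:10216397-10216687, 7.78 kb from the fatty acid carrier gene Fabp4, it was 14.0. Both had overlapping groups. Of 23 preadipocyte and anti-adipogenic genes, 11 had regions, 21 in all, and none of the 4 tested had an unadjusted p below 0.05. In Gata2, a GATA factor that holds back adipogenesis, chr6:88203969-88204125 averaged 12.1, and in Runx1, chr16:92697997-92698165, 33 bases from a peak of another day, averaged 11.2. Their groups overlapped as well.

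Matrix and adhesion genes had 30 regions at 15 of 29 genes, with 1 of 11 tested lower and none higher by the same criterion (an unadjusted p below 0.05, here and in the lists that follow). A region in the fibrillin gene Fbn1, chr2:125325177-125325524, had 11.5, 14.2 and 16.2 against 12.9, 23.1, 10.5 and 8.95, with overlapping groups. The region chrX:20862122-20862497 lies inside Syn1, a synapsin gene, and 7.67 kb from the metalloproteinase inhibitor gene Timp1. It had 5.11, 17.7 and 19.9 against 19.3, 28.3, 30.5 and 14.1, again in overlapping groups. The log2 fold change of -0.60 ± 0.377 (adjusted p = 0.895, edgeR) was -0.29 without Kdm5c siRNA library 1 and -0.93 without library 4 of that group. AP-1 and immediate early genes had 12 regions at 8 of 16 genes, with 1 of 7 tested higher. That was a region near Egr1, with 15.3, 49.7 and 26.7 normalised counts against 9.64, 13.6, 16.4 and 19.2. Library 1 with Kdm5c siRNA lay inside the scramble range, and the log2 fold change of 1.08 ± 0.348 did not pass (adjusted p = 0.678, edgeR). Without Kdm5c siRNA library 2 the log2 fold change was 0.57. A region 2.65 kb from the AP-1 gene Fosl2, chr5:32133631-32133818, averaged 32.6 with overlapping groups.

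Genes of YAP, TEAD and the actin-SRF system had 17 regions at 9 of 22 genes found in the table, with 1 of 9 tested lower. Regions in Tead3 (chr17:28345338-28345525) and Yap1 (chr9:7960345-7960624) averaged 13.7 and 12.5 normalised counts. Both had overlapping groups. Cell cycle genes had the fewest relative to their other distal peaks, 9 against 28, at 6 of 30 genes, and none of 4 tested had an unadjusted p below 0.05. At the cell cycle inhibitor gene Cdkn1b, chr6:134926870-134927048 averaged 19.6. The region chr2:154552341-154552649, 6.75 kb from E2f1 but only 0.565 kb from a start of Actl10, averaged 15.9. Genes that answer to insulin, glucocorticoids or cAMP had 21 regions at 10 of 21 genes, with 1 of 10 tested lower. In the glucocorticoid-induced genes Zbtb16 (chr9:48737451-48738007) and Sgk1 (chr10:21937016-21937472) the regions averaged 29.3 and 22.2, and both had overlapping groups.

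Genes of enzymes that add or remove methyl groups at lysine 4 of histone H3, the residue on which KDM5C acts, had only 4 regions at 4 of 15 genes, Kdm5a, Kmt2c, Kmt2d and Setd1a, with 1 of 2 tested lower. None lay at Kdm5c itself. In Kmt2d, a methyltransferase of enhancers, chr15:98834763-98835141 had 29.4, 4.43 and 9.95 normalised counts with Kdm5c siRNA and 13.9, 21.0, 55.1 and 28.1 with scramble. Library 1 with Kdm5c siRNA exceeded 3 of the scramble libraries. The log2 fold change was -1.14 ± 0.366 (SE, adjusted p = 0.678, edgeR). Without that library it was -1.93 ± 0.446 with an adjusted p of 0.0474, the only call of a region under any setting that was tried. Without scramble library 3 it was -0.63 (adjusted p = 0.913), without Kdm5c siRNA library 2 it was -0.73, and DESeq2 gave an unadjusted p of 0.176 with all libraries. In Kdm5a, chr6:120370802-120371359 had 8.94, 7.98 and 24.6 against 4.29, 12.6, 7.03 and 15.3, with overlapping groups.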

How the data were processed

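Per the labels' protocols, nuclei of transfected 3T3-L1 cells were profiled by ATAC-seq. For each day the authors deposited a table of raw counts of reads per peak over all libraries, and these counts entered every test. A second deposited table per day holds the authors' normalised signal at gene-assigned peaks, and it served here only to tell which peaks have a gene. The submitters' processing notes list the GRCm38 build and, with no role or order, DESeq2 1.24.0, HTSeq 0.9.1, MACS2 2.1.1, Bowtie2 2.2.9 and cutadapt 2.3. Not given in the sources used here are how libraries were pooled to call peaks, which decides the weak peaks that are listed at all, how duplicates were handled, and whether a start counts from 0 or 1. Coordinates are printed as deposited and taken as closed intervals.

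All 37054 day 0 peaks entered 1 fit of edgeR 4.0.16 (R 4.3.3; TMM factors, filterByExpr, quasi-likelihood F test, no covariate), with Benjamini-Hochberg adjustment over the 28398 tested peaks and a threshold of 0.05. Each standard error was computed from its F statistic. DESeq2 1.42.0 was the second tool. Nuclear counts per day 0 library, summed over the listed peaks, ranged from 1088968 to 2525925. The median region had 8 reads, so that single regions are measured with little precision. Places came from RefSeq gene spans and start windows of GRCm38.p6 (start windows on chromosome 18, where 125 regions lie, were not used here). The analysis used Python 3.11.15 and was tested on simulated data.

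The members, the gene lists and the rule for named regions were chosen with earlier results of these data known. Regions named are those called, the 6 higher and 6 lower ones with the smallest p whose groups do not overlap, the 5 with the highest mean, the 3 widest and 2 of the narrowest, up to 2 per gene list by level, those at the edge of the definition, and the 2 stretches of 500 kb with most regions. Of these regions, 1 is not reported here. The alternatives were other scalings, filters and tools, a replicate block, leaving out each library, and other definitions of overlap.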

Additional observations from a re-analysis of the deposited data

Results flagged for a closer look

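Each of 45 measures was checked over the 4 scramble libraries, and in 1 of them a library lay far from the others. At the 93-base region chr11:94282341-94282433 near the model gene Gm21885, scramble library 4 had 10.2 normalised counts, while the other scramble libraries had at most 2.34. These values rest on 8 and 2 raw reads. Chance alone sets about 1 in 20 such groups apart.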

How the results depend on the processing

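Calls over all day 0 peaks numbered 1, and 2 with DESeq2 size factors, 0 with total counts, 6 with no low-count filter, 0 with DESeq2, 2 without mitochondrial peaks and 0 to 10 when 1 library was left out. The 10 came without Kdm5c siRNA library 1, and 5 without scramble library 1. Day 0 only distal peaks had 0 calls, and 0 to 1 when 1 library was left out. At an unadjusted p below 0.05 (edgeR) there were 243 of 3713 tested regions, and 372 of 3713 with total counts (367 higher). With no filter there were 563 of 9494, and with DESeq2 663 of 9494. Among those with a mean of at least 10 raw counts there were 160 of 2609. Leaving out 1 library gave from 196 of 2983 to 370 of 5429, the latter without Kdm5c siRNA library 1. These counts rest on different numbers of tested regions. The share was 6.54% in the main fit and 5.93% with no filter, beside 5.99% and 5.77% of all peaks. With total counts 6420 of all 28398 tested peaks had such a p. In each of these settings, total counts apart, lower regions outnumbered higher ones. Regions whose groups do not overlap numbered 565, and 993 to 1278 with 1 library less, since fewer libraries have to be apart. The difference in the share of nuclear counts (Kdm5c siRNA minus scramble) was -0.67 percentage points, -1.08 as a share of distal counts, 0.209 as a share of all counts, and -0.918 to -0.532 when 1 library was left out. Counting an overlap only where it covers 50% of both peaks gave 14329 regions, and keeping those with a mean of at least 20 raw counts left 335. With total counts the log2 fold changes near Slc35e3, Lin7a, in Cpm (chr10:117675765-117675889), at Gm40371 and at Sertad4 turned to 0.30, 0.40, 0.42, 0.15 and 0.019, and the region near Cpm (chr10:117556674-117556983) had -0.042 to 0.185 when 1 library was left out. Apart from the scalings, the cause of these shifts was not tested.

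Replicate numbers did not pair the libraries. For this, the group mean of each tested nuclear peak was subtracted from its log counts. What remained had correlations of -0.027, -0.011 and -0.030 between same-numbered libraries. With the replicate block 0 peaks were called. Of 3713 tested regions, 199 had an unadjusted p below 0.05 (edgeR), 61 higher and 138 lower, beside 1475 of all 28398 tested peaks. The median region had 8 reads per library, and 5781 of 9494 regions had too few reads to be tested.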
